A study of Mus musculus with 12 samples.

Results

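The nuclear genes for the subunits of the mitochondrial respiratory chain and the ATP synthase were followed in primary mouse B lymphocytes exposed to a STING agonist. Members were chosen by name alone: protein-coding genes whose symbols begin with Nduf, a letter a, b, c, s or v and a number, the genes Sdha to Sdhd, symbols beginning with Uqcr, with Cox4 to Cox8, or with Atp5. The rule found 85 of the 54532 genes in the deposited count table. At least 1 count was present in some library for 82 of them, and 79 passed the filter on low counts, among 14473 tested genes in all. The rule reads names and no measured value, but the group of genes was taken up with earlier results of these data known. It leaves out Cyc1 and Ndufab1, which are subunits with other names, and Ndufb1-ps, which the table annotates as a noncoding transcript although it had a mean of 889 counts per library.

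B cells were sorted from 3 wild type mice and 3 mice labelled Tmem173-/-, Tmem173 being the gene for STING, the receptor for cyclic dinucleotides. They were cultured in plates either with 3'3'-cGAMP, a bacterial cyclic dinucleotide that binds STING, for 12 hours, or as controls. The 12 poly-A RNA libraries form 4 groups of 3: wild type cGAMP, wild type control, Tmem173-/- cGAMP and Tmem173-/- control. The labels give no age, sex, strain, dose or vehicle, no description of the Tmem173-/- allele, and no statement on whether a control and a cGAMP library share a mouse, so that p-values measure the spread between these libraries, which may in part be technical.

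Complex I (the Nduf genes) takes electrons from NADH and complex II (the Sdh genes) takes them from succinate in the citrate cycle. Both pass them to ubiquinone, from which complex III (Uqcr) hands them to cytochrome c and complex IV (Cox) to oxygen, while protons are pumped by complexes I, III and IV and drive the ATP synthase, or complex V (Atp5). Core subunits carry out the chemistry, and the many small supernumerary subunits surround them and are needed for assembly and stability. Resting B cells have a low respiratory rate, and activation by antigen or microbial products is known to raise it together with mitochondrial mass.

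Total counts ranged over 26490593 to 31417833 per library, and the members made up 0.892% to 1.23% of them. The 10 B cell markers, among them Cd79a, Cd79b and Ms4a1, were all tested, and their summed level was 3570 to 4350 CPM (counts relative to library size, scaled between libraries by the TMM method) in wild type cGAMP, 5290 to 6440 CPM in wild type control, 5480 to 6660 CPM in Tmem173-/- cGAMP and 5560 to 6400 CPM in Tmem173-/- control. In wild type cells 8 of these 10 markers were lower after cGAMP (80%, beside 25.4% of all tested genes). The other 2 were higher (20%, beside 22.4%). Summed markers were low for T cells (16.5 to 48.6 CPM), NK cells (0.413 to 4.91 CPM) and monocytes and macrophages (10.8 to 61.9 CPM). They were also low for erythroid cells (0.53 to 3.24 CPM) and for platelets and megakaryocytes (13.3 to 25.1 CPM). Plasma cell markers were not low, at 840 to 1080 CPM. Of these 6 genes 4 were lower in wild type cells after cGAMP (66.7%, beside 25.4% of all tested genes). Neutrophil markers summed to 24 CPM in wild type cGAMP library 1 and to 9.33 CPM in wild type control library 1, against at most 1.77 CPM elsewhere, and Elane was at 0 in every group. Tmem173 RNA itself had 80.2, 94.7 and 103 CPM in Tmem173-/- control libraries, against 91.2, 102 and 92.7 CPM in wild type control libraries, so the RNA does not check the genotype and directions between genotypes rest on the labels. In bulk RNA, fewer cells of a type and less RNA per cell cannot be told apart.

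Levels per length differed widely between members. On the authors' FPKM scale (counts relative to library total and to 1 fixed length per gene, which for most members was shorter than the gene length column of the same table), Atp5b, the catalytic beta subunit of the ATP synthase, stood highest, at 1646 ± 104 FPKM in wild type cGAMP and 1449 ± 214 FPKM in wild type control (SD, n = 3 each). Atp5a1, its alpha partner, had 647 ± 52.3 FPKM in wild type cGAMP and 719 ± 50.9 FPKM in wild type control and stood apart from Atp5b by far more than the spread on that scale. The order of this pair depends on the length used: recomputed with the deposited gene length in place of the authors' length, Atp5b had 339.5 FPKM in wild type cGAMP and 299 FPKM in wild type control, and Atp5a1 had 309.8 FPKM in wild type cGAMP and 344 FPKM in wild type control. On the authors' scale Cox4i1 followed at 590 ± 76.1 FPKM in wild type cGAMP and 712 ± 92.3 FPKM in wild type control and did not differ from Atp5a1 beyond that spread. Among tested subunits that are not tissue forms, Ndufb2 was lowest, at 4.27 ± 1.08 FPKM in wild type cGAMP and 4.90 ± 0.585 FPKM in wild type control. Its mean was 178 counts per library, and Braf, with 1250, overlaps it on the other strand. Gm42420, with 0 counts, overlaps it on the same strand. The effect of these overlaps on the level of Ndufb2 was not tested. Median levels over the subunits of a complex in wild type control cells, leaving out tissue forms, Cox7a2l and Atp5s, were 94.4 FPKM for complex I, 106 for complex II, 222 for complex III, 271 for complex IV and 238 for complex V.

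**Figure D1:**
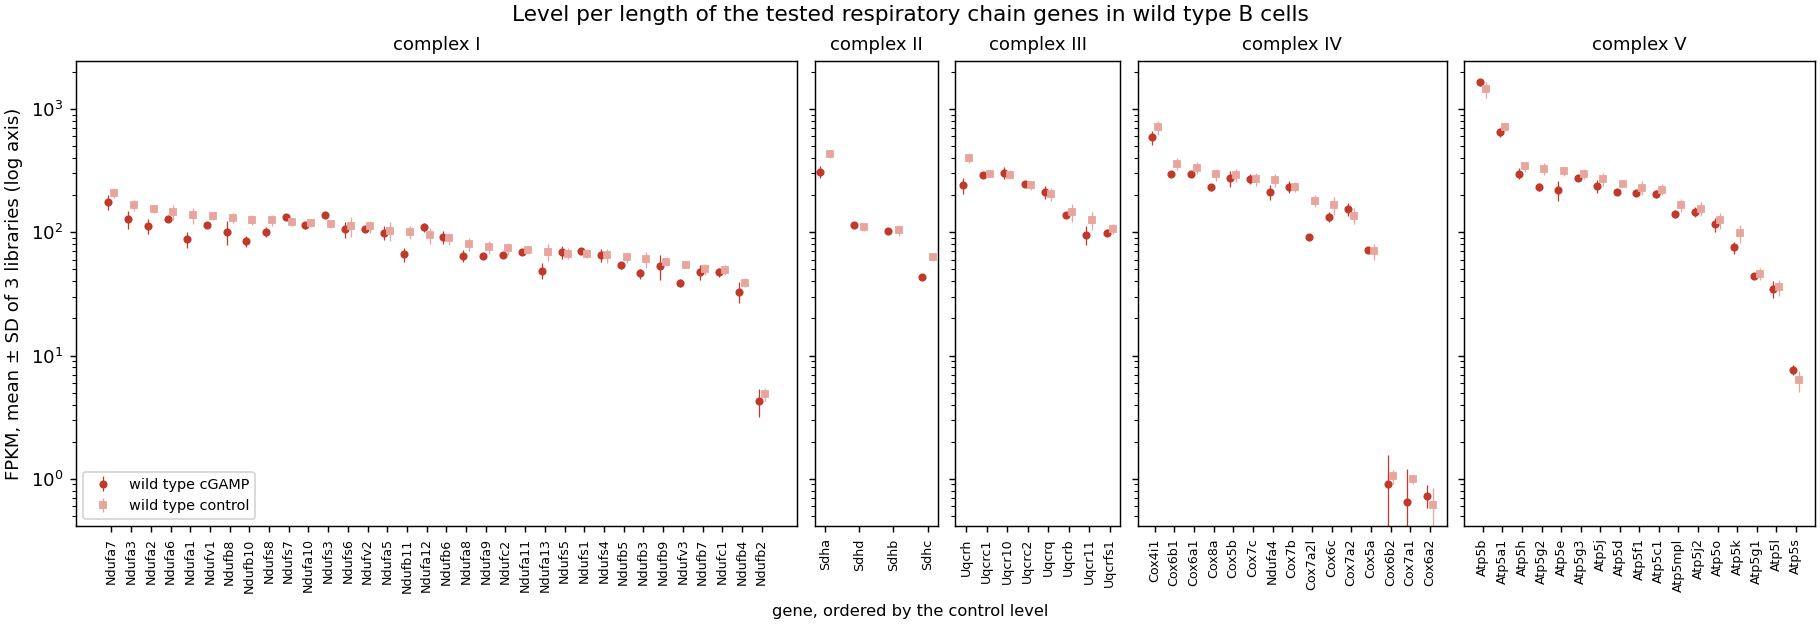
Level of tested respiratory chain genes in wild type B cells, as FPKM on a log axis, with cGAMP libraries as circles and control libraries as squares (mean ± SD of 3 libraries), grouped by complex and ordered by the control level. Atp5b is highest at 1449 FPKM in control cells, and 3 tissue forms of complex IV lie near 1 FPKM.

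These B cells carried the ubiquitous form of each complex IV subunit that has isoforms. Cox6a1, the ubiquitous form, averaged 172.5 CPM in wild type cGAMP and 204 CPM in wild type control cells, while Cox6a2, the heart and muscle form, had 0.487 CPM in wild type cGAMP and 0.437 CPM in wild type control cells. Cox6b2 (testis form) averaged 0.421 CPM in wild type cGAMP and 0.507 CPM in wild type control cells, and Cox7a1 (heart and muscle form) had 0.280 CPM in wild type cGAMP and 0.448 CPM in wild type control cells. None of these 3 passed the test in any comparison. The tissue forms Cox4i2, Cox7b2, Cox8b, Cox8c and Ndufa4l2 and a second Atp5o identifier were not tested: the highest sum over 3 libraries of any group was 4 counts, for Cox4i2 in wild type control cells. The c ring of the ATP synthase is encoded by 3 genes with one mature product, and in wild type cGAMP cells Atp5g3 stood at 278 FPKM, Atp5g2 at 233 FPKM and Atp5g1 at 44.2 FPKM, against 299, 328 and 46.1 FPKM in wild type control cells.

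After 12 hours of cGAMP, 22 of the 79 tested members fell in wild type B cells and none rose. In edgeR's quasi-likelihood test (Benjamini-Hochberg adjusted p under 0.05 over all 14473 genes), 25.4% of all tested genes were lower and 22.4% were higher in the same comparison, 47.8% in all. The members' share of lower calls, 27.8%, was therefore close to that of all genes, and the difference lay on the other side, where 0% of members and 22.4% of all genes were higher. The median log2 fold change of the members was -0.24, against -0.0036 over all tested genes, and 72 of the 79 fitted changes were negative. All 3 cGAMP libraries lay below all 3 controls for 26 members, above them for 1 (Ndufs3), and overlapped them for 52, while over all genes 28.4% lay below and 26% above. The fitted changes ranged over -1.04 to 0.21 on the log2 scale, so that the member with the largest fall, Cox7a2l, changed by a little over 1 log2 unit.

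**Figure D2:**
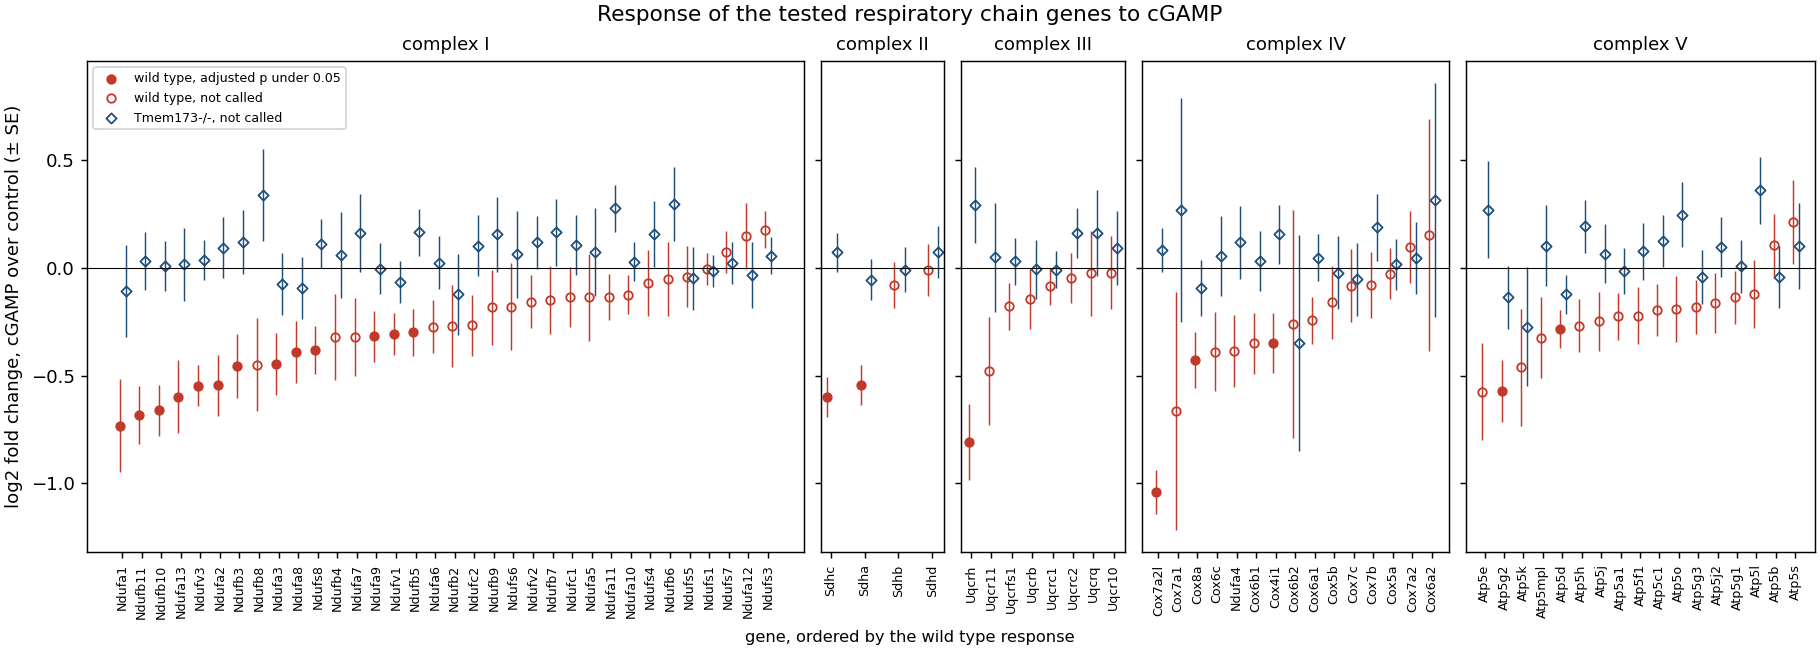
Fitted log2 fold change (± SE) of tested respiratory chain genes, cGAMP over control, in wild type cells (circles, filled where the adjusted p was under 0.05) and in Tmem173-/- cells (diamonds), by complex and ordered by the wild type response. The filled circles all lie below 0, and no diamond is filled.

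One control library carries part of this difference. Wild type control library 3 held the highest value of 68 of the 79 members, a position it took for 15.8% of all tested genes, and its members summed to 13470 CPM, against 8623 to 11620 CPM in the other 11 libraries. The mean log2 CPM of the tested members was 6.12, 6.29 and 6.07 in wild type cGAMP libraries, against 6.34, 6.27 and 6.65 in wild type control libraries. Tmem173-/- control library 3 stood at the other end, with the lowest value of 45 of the 79 members, against 10.6% of all genes. Fitted without wild type control library 3, 10 of the 22 calls remained, the median log2 change was -0.11, and Ndufs3 was called higher (log2 fold change 0.24, edgeR adjusted p = 0.0362). Without wild type cGAMP library 3 the count was 14. The shares of all genes called in these fits are not given here. The calls that remained without wild type control library 3 included Cox7a2l, Uqcrh, Ndufb11, Ndufb10, Ndufv3, Ndufa2, Sdha, Sdhc and Atp5g2.

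**Figure D3:**
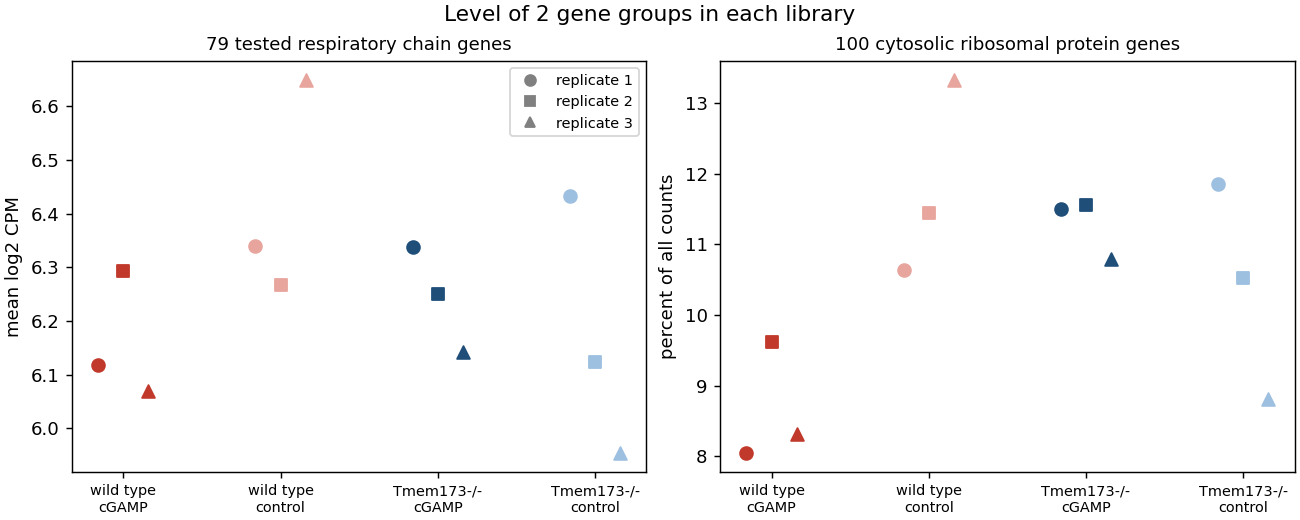
Mean log2 CPM of the 79 tested respiratory chain genes (left) in each of the 12 libraries, by group. The right panel, labelled cytosolic ribosomal protein genes, gives the percent of all counts in 100 protein-coding genes with symbols beginning with Rpl or Rps and a number. Wild type control library 3 is highest in both panels, at 6.65 and 13.3%, and Tmem173-/- control library 3 is lowest on the left, at 5.95.

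Other measures moved with the same libraries. The 100 protein-coding genes with symbols beginning with Rpl or Rps and a number took 8.04%, 9.62% and 8.31% of the counts in wild type cGAMP libraries. In wild type control libraries they took 10.6%, 11.4% and 13.3%. This name rule was meant for ribosomal protein genes, also short and abundant, and can take in other genes. The deposited gene length had a median of 1587 bases over the tested members, against 3705 over all tested genes. For genes of up to 1000 bases the median log2 change in wild type cells was -0.37 over 20 members and -0.21 over all genes of that length, and for genes over 4000 bases it was -0.14 over 10 members and 0.03 over all. By the lengths behind the FPKM values, which had a median of 701 bases over tested members and 1642 over all tested genes, the medians were -0.26 over 61 members and -0.10 over all genes of up to 1000 bases, and -0.22 over 16 members and 0.03 over all genes of 1000 to 2000 bases. Members thus lay below the genes of their own length class in each of these 4 classes, and the part of transcript length or RNA quality in the members' fall was not tested.

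In complex I, 14 of 35 subunits fell (40%, beside 25.4% of all tested genes) and none rose, with a median log2 change of -0.27. Of the core subunits, 3 of 7 fell, Ndufs8 and Ndufv1 among them, and of the supernumerary ones 11 of 28. Ndufb11, a small membrane-arm subunit on the X chromosome, had 57.1, 67.1 and 52.7 CPM in wild type cGAMP libraries, against 82.3, 87.6 and 114 CPM in wild type control libraries. The groups did not overlap, and the log2 fold change was -0.68 ± 0.14 (SE, edgeR adjusted p = 0.000675). Rbm10 lies over Ndufb11 on the other strand with more counts, 3447 against 2283 per library, and because the strand setting is not given some reads could belong to either.

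Ndufb10, another membrane-arm subunit, had 48.2, 55.0 and 45.3 CPM in wild type cGAMP libraries, against 73.3, 69.2 and 91.9 CPM in wild type control libraries, a log2 fold change of -0.66 ± 0.12 (SE, edgeR adjusted p = 0.000243). The highest cGAMP library stayed below the lowest control. Ndufv3, a supernumerary subunit of the NADH-oxidising arm, had 26.6, 30.0 and 30.8 CPM in wild type cGAMP libraries, against 41.1, 39.5 and 46.9 CPM in wild type control libraries (log2 fold change -0.55 ± 0.09, SE, edgeR adjusted p = 0.000167). Here too the groups did not overlap.

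The largest fitted fall in complex I was that of Ndufa1, at 36.1, 40.8 and 30.8 CPM in wild type cGAMP libraries, against 53.1, 51.7 and 73.9 CPM in wild type control libraries (log2 fold change -0.73 ± 0.21, SE, edgeR adjusted p = 0.0140). This call rested on single libraries: without wild type control library 3 the log2 fold change was -0.55 with an adjusted p of 0.0655, and without wild type cGAMP library 3 it was -0.64 with 0.0524. The other complex I calls lost without wild type control library 3 were those of Ndufa13, Ndufa3, Ndufa8, Ndufa9, Ndufb3, Ndufb5, Ndufs8 and Ndufv1, whose log2 changes without it ranged over -0.42 to -0.16.

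Some complex I subunits showed no fall at all. Ndufs1, the large iron-sulfur subunit of the NADH-oxidising arm, had 88.2, 87.5 and 90.3 CPM in wild type cGAMP libraries, against 94.6, 84.3 and 87.8 CPM in wild type control libraries, a log2 difference of -0.0036 with a 95% limma-voom interval of -0.16 to 0.15. Eef1b2, with 26230 counts per library, overlaps it on the other strand. Ndufs3, a core subunit of the ubiquinone-reducing arm, had 95.0, 93.7 and 95.1 CPM in wild type cGAMP libraries, against 84.5, 74.6 and 91.9 CPM in wild type control libraries. Its cGAMP libraries all stood above the controls, but the log2 difference of 0.18 ± 0.09 (SE) did not pass the test (edgeR adjusted p = 0.102). Ndufs7, which holds the last iron-sulfur cluster before ubiquinone, and Ndufa12 had log2 differences of 0.07 and 0.15 with overlapping groups, and neither passed the test.

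Of the 4 subunits of complex II, 2 fell (50%, beside 25.4% of all tested genes) and 2 gave no call. Since 47.8% of all tested genes were called in this comparison, nothing particular to complex II is read from this count. Sdha, the flavin subunit that oxidises succinate, had 257, 207 and 238 CPM in wild type cGAMP libraries, against 359, 314 and 348 CPM in wild type control libraries. No cGAMP library came near a control, and the log2 fold change was -0.54 ± 0.09 (SE, edgeR adjusted p = 0.000178). For Sdhc, one of the membrane anchors, the values were 58.3, 62.7 and 61.3 CPM in wild type cGAMP libraries, against 91.8, 82.2 and 102 CPM in wild type control libraries (log2 fold change -0.60 ± 0.09, SE, edgeR adjusted p = 6.28e-05).

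The iron-sulfur subunit Sdhb and the other anchor, Sdhd, gave no call. Sdhb had 108, 120 and 120 CPM in wild type cGAMP libraries, against 117, 107 and 144 CPM in wild type control libraries, a log2 difference of -0.08 with an interval of -0.29 to 0.15 (95%, limma-voom). Sdhd had 130, 145 and 140 CPM in wild type cGAMP libraries, against 135, 124 and 158 CPM in wild type control libraries, a log2 difference of -0.01 with an interval of -0.26 to 0.25. The groups overlapped for both genes.

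In complex III, Uqcrh, the acidic hinge protein next to the cytochrome c site, was the only 1 of 8 subunits that fell (12.5%, beside 25.4% of all tested genes). It had 112, 152 and 126 CPM in wild type cGAMP libraries, against 199, 232 and 250 CPM in wild type control libraries, a log2 fold change of -0.81 ± 0.18 (SE, edgeR adjusted p = 0.00207). Every cGAMP library lay below every control. Uqcr11 had the next largest fitted difference, -0.48 on the log2 scale, but its groups overlapped and it missed the threshold (edgeR adjusted p = 0.141). Uqcrfs1, the Rieske iron-sulfur protein, stood at -0.18 (edgeR adjusted p = 0.198), and the other 5 subunits at -0.14 to -0.02.

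Among 15 tested complex IV genes 3 fell, or 20%, beside 25.4% of all tested genes. The 15 include the 3 tissue forms at very low levels, of which 0 were called, and no shortfall is read from this share. Cox7a2l, which is related to subunit 7A and joins complex III to complex IV in supercomplexes, had 94.6, 106 and 101 CPM in wild type cGAMP libraries, against 176, 205 and 237 CPM in wild type control libraries. The groups were far apart, with a log2 fold change of -1.04 ± 0.10 (SE, edgeR adjusted p = 7.78e-07). Its relative Cox7a2, the ubiquitous subunit 7A, had 68.9, 84.0 and 70.1 CPM in wild type cGAMP libraries, against 63.1, 59.4 and 85.8 CPM in wild type control libraries, with overlapping groups and a log2 difference of 0.10 (edgeR adjusted p = 0.656).

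Cox8a, the ubiquitous subunit 8, fell to 133, 116 and 121 CPM in wild type cGAMP libraries, against 163, 140 and 195 CPM in wild type control libraries (log2 fold change -0.43 ± 0.13, SE, edgeR adjusted p = 0.0136). Leaving out wild type control library 3 gave -0.30 with an adjusted p of 0.0720, and leaving out wild type cGAMP library 2 gave -0.39 with 0.0519. Cox4i1, the ubiquitous subunit 4, averaged 349 ± 44.5 CPM in wild type cGAMP and 444 ± 81.0 CPM in wild type control cells (SD, n = 3 each) with overlapping groups; its call (log2 fold change -0.35, edgeR adjusted p = 0.0477) was lost in 7 of the 12 fits that left out 1 library, with an adjusted p of 0.244 and a log2 difference of -0.20 without wild type control library 3. Cox6c, Ndufa4 and Cox6b1 had fitted differences of -0.39, -0.39 and -0.35 that did not pass the test, and Cox6a1 and Cox7b stood at -0.24 and -0.08. Ndufa4, first assigned to complex I, is a subunit of complex IV.

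In the ATP synthase 2 of 17 tested genes fell, or 11.8%, beside 25.4% of all tested genes. Atp5g2, one of the genes for the c ring, had 151, 152 and 134 CPM in wild type cGAMP libraries, against 208, 186 and 257 CPM in wild type control libraries, with no overlap (log2 fold change -0.57 ± 0.15, SE, edgeR adjusted p = 0.00474). The sister genes Atp5g1 and Atp5g3, at -0.14 and -0.18 on the log2 scale, did not pass the test. Atp5d, the delta subunit of the rotating stalk, was lower by a log2 fold change of -0.28 ± 0.09 (SE, edgeR adjusted p = 0.0156), and lost its call without wild type control library 3 (adjusted p = 0.0549) or wild type cGAMP library 2 (adjusted p = 0.0572).

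Atp5e, the epsilon subunit, had 158, 221 and 167 CPM in wild type cGAMP libraries, against 244, 258 and 311 CPM in wild type control libraries. Its groups did not overlap, but the log2 difference of -0.57 ± 0.23 (SE) missed the threshold (edgeR adjusted p = 0.0544), and it passed in 3 fits that left out 1 library, without Tmem173-/- control library 1 or 3 or wild type cGAMP library 2 (adjusted p of 0.00388, 0.00776 and 0.0277). Atp5k stood at -0.46 with an adjusted p of 0.191, and passed without Tmem173-/- cGAMP library 3 (adjusted p = 0.0314). The most abundant member, Atp5b, had 1500, 1328 and 1404 CPM in wild type cGAMP libraries, against 1359, 1042 and 1527 CPM in wild type control libraries, and its groups overlapped (log2 difference 0.11, edgeR adjusted p = 0.567). Atp5s, a coupling factor that the name rule includes though it is not a subunit, had the highest fitted value of all members, 0.21, without passing the test.

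Promoter sequences, which the name rule did not use, were read for 5 motifs. RefSeq promoters of build GRCm38.p6, running from 250 bases before to 50 bases after the annotated start, were matched for 64 tested members. The match was by gene identifier, or by symbol where that failed. For 53 of the 64 the promoter's start lay within 100 bases of the deposited gene start. The NRF1 motif, GCGCA followed by any base and GCGC, was found on either strand in 16 of them (25%), against 4.6% of 32851 promoters of all genes. Those 32851 were not limited to tested genes and can hold several per gene, while a single promoter was read for each member. AAGATGGCG, a YY1 element, was in 9.38% of members against 1.4% of all promoters, and CCGGAAGT, the ETS element that GABP binds, in 7.81% against 3.89%. TATAAA was in 7.81% of members and 13.6% of all promoters, and CCAAT in 43.8% and 37.4%; both strands were searched for every motif. NRF1 letters were in 3 of the 18 matched members that fell in wild type cells (16.7%) and in 13 of the 46 without a call (28.3%). Among those 3 was Atp5g2, whose matched promoter start lay 1305 bases from the deposited gene start.

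The promoters of 3 fallen members illustrate how they differ, each from chromosome 13, 4 or 17 and on the minus strand. Capitals mark an NRF1 motif in Sdha (chr13:74350191-74350490), which holds 3. In Uqcrh (chr4:116075021-116075320) they mark an ETS element in reverse. The promoter of Cox7a2l (chr17:83514284-83514583), the member with the largest fall, holds none of the 5 motifs searched, including CCAAT.
Sdha: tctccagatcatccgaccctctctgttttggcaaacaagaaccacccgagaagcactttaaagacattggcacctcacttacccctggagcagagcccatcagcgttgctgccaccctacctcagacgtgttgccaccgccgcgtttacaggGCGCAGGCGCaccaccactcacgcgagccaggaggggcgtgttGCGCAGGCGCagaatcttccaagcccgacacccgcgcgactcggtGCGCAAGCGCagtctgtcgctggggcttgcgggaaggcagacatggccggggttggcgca
Uqcrh: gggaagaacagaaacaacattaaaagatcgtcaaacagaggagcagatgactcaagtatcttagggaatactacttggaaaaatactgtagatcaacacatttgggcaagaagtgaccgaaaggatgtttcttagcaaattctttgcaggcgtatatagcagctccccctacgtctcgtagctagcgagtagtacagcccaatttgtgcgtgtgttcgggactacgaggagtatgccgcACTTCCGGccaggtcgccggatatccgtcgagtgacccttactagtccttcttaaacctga
Cox7a2l: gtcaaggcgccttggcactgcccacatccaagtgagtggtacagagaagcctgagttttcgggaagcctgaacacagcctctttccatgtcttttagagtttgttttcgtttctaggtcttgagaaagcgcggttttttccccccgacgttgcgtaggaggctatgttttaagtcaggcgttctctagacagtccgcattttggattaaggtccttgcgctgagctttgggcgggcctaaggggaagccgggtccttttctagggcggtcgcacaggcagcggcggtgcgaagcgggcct
All 3 genes fell in wild type cells. A match describes the sequence and is not a bound site, and no match says only that the letters are not in this window.

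In libraries labelled Tmem173-/-, cGAMP left no member past the threshold. Of the 79 tested members 0 were called, as were 0% of all 14473 genes by edgeR, 203 of which had an unadjusted p under 0.05; DESeq2 also called 0. The members' fitted log2 differences ranged over -0.35 to 0.36 with a median of 0.06, which was -0.04 without Tmem173-/- control library 3 and 0.19 without Tmem173-/- control library 1. Both groups overlapped for 77 members, while the cGAMP libraries stood above all controls for 2, Ndufa11 and Atp5l. Over all tested genes they stood above all controls for 3.2% and below them for 3.44%. Cox7a2l had 196, 220 and 204 CPM in Tmem173-/- cGAMP libraries, against 202, 208 and 176 CPM in Tmem173-/- control libraries, and Sdha had 333, 337 and 312 CPM in Tmem173-/- cGAMP libraries, against 354, 314 and 351 CPM in Tmem173-/- control libraries. Neither gene separated the groups. Uqcrh was spread widely among the controls, with 219, 238 and 223 CPM in Tmem173-/- cGAMP libraries, against 242, 183 and 131 CPM in Tmem173-/- control libraries.

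A direct test of the difference between the genotypes' responses, (cGAMP minus control in wild type) minus (cGAMP minus control in Tmem173-/-), called 13 members, each with the more negative change in wild type cells. Over all tested genes 31.6% were called in this comparison, 17.5% lower and 14.1% higher, against 16.5% lower and 0% higher among the members. The difference of log2 changes was -1.12 ± 0.15 for Cox7a2l (SE, edgeR adjusted p = 3.42e-05), -1.10 ± 0.25 for Uqcrh (adjusted p = 0.00460) and -0.67 ± 0.13 for Sdhc (adjusted p = 0.00107). For Ndufb11, Ndufb10, Ndufv3 and Sdha it was -0.71, -0.67, -0.58 and -0.49, with adjusted p of 0.00999, 0.00597, 0.00315 and 0.0102. Of the 13 genes 12 were also lower in the wild type comparison, which uses the same wild type libraries, and the other was Ndufa11 (-0.41, adjusted p = 0.0497).

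The count of these calls depended on single libraries. The share of all genes called in each of these fits is not given here. The counts therefore do not tell a change in the members from one in genes in general. It was 7 without wild type control library 3 and 8 without any one of wild type cGAMP library 1, wild type cGAMP library 3, Tmem173-/- cGAMP library 2, Tmem173-/- control library 2 and Tmem173-/- control library 3, and 34 without Tmem173-/- control library 1, the control of that genotype with the highest member level. The genes called without wild type control library 3 were Cox7a2l, Uqcrh, Sdhc, Sdha, Ndufb10, Ndufb11 and Ndufv3. Ndufa2, Ndufb3, Ndufb5, Ndufs8 and Ndufa11 were among those that lost their calls without it, with adjusted p of 0.0590 to 0.121.

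**Figure D4:**
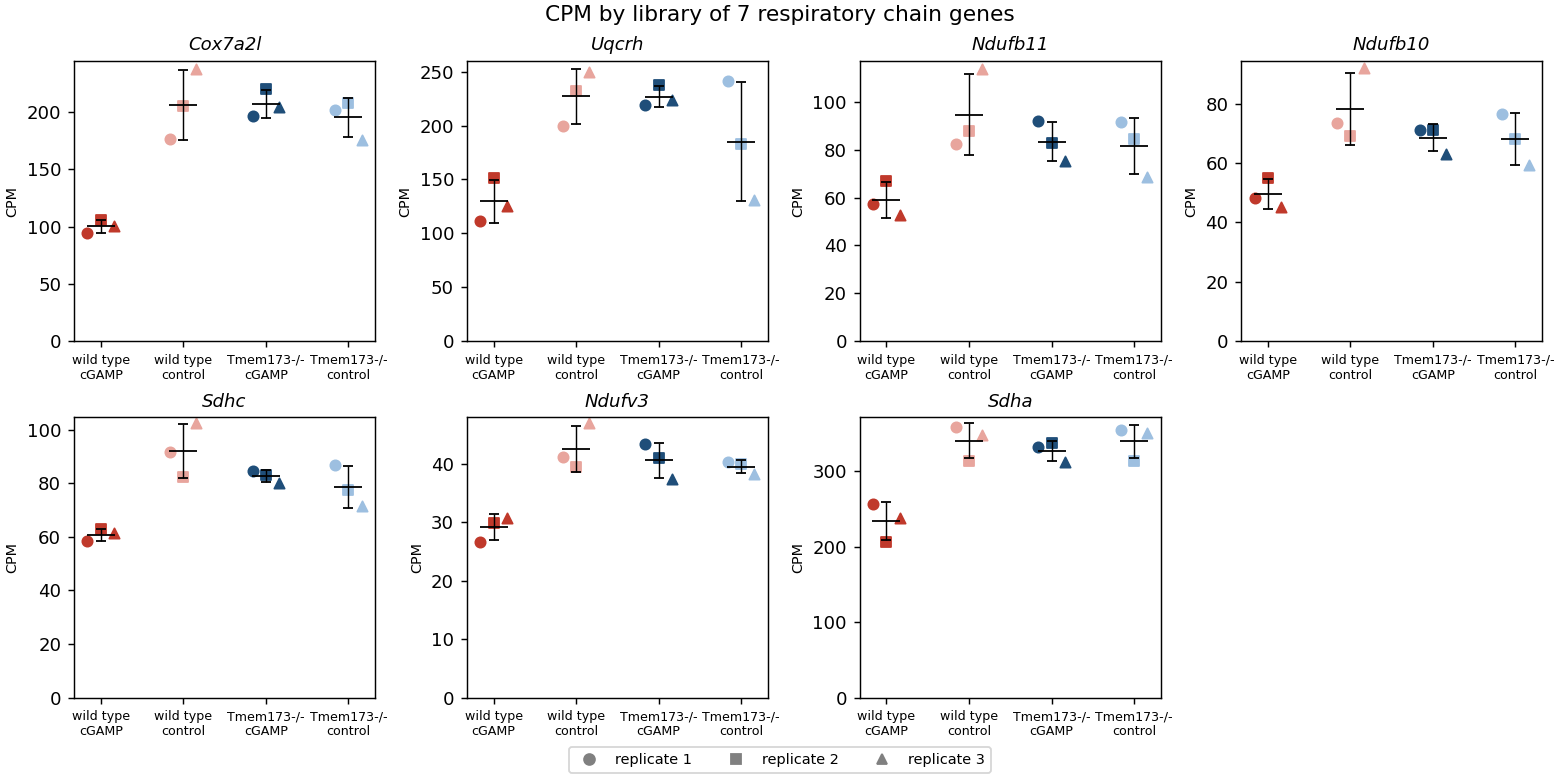
CPM of 7 respiratory chain genes in each of the 12 libraries (points by replicate number; bars, mean ± SD of 3 libraries), with the axis starting at 0. These were chosen after their values were seen, because their call in the wild type comparison held under all 22 alternative fits, and in each panel the 3 wild type cGAMP libraries lie below the 3 wild type control libraries.

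Between untreated cells of the genotypes, Tmem173-/- control against wild type control, edgeR called 0 of the 79 members and 0% of all genes, 921 of which had an unadjusted p under 0.05; DESeq2 called 4 genes, none of them a member. Even so 77 of the 79 fitted differences were negative, with a median log2 value of -0.26 against -0.0068 over all genes. The groups overlapped for 78 members, and the Tmem173-/- controls lay above the wild type controls for 1 and below for 0. Over all genes the Tmem173-/- controls lay above for 5.01% and below for 4.08%. The members' median was -0.12 without wild type control library 3 and -0.14 without Tmem173-/- control library 3, the libraries with the highest and the lowest member level. It was -0.40 without Tmem173-/- control library 1.

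Under cGAMP, Tmem173-/- cells against wild type cells, 8 members were higher (10.1%) and 4 were lower (5.06%). Of all tested genes 24.9% were higher and 23.5% lower, 48.3% in all. The members' median log2 difference was 0.07, against 0.0066 over all tested genes, with 48 fitted differences positive and 31 negative. This comparison uses no control library for its means. The higher genes included Cox7a2l, Uqcrh, Ndufb11, Ndufb10, Sdha, Sdhc and Ndufv3, and all 8 were among the 22 that fell in wild type cells, a comparison that shares the wild type cGAMP libraries. Cox7a2l had 196, 220 and 204 CPM in Tmem173-/- cGAMP libraries, against 94.6, 106 and 101 CPM in wild type cGAMP libraries, a log2 fold change of 1.04 ± 0.10 (SE, edgeR adjusted p = 6.47e-07). The corresponding log2 fold changes were 0.81 for Uqcrh (adjusted p = 0.00194), 0.49 for Sdha (0.000438), 0.48 for Ndufv3 (0.000486) and 0.44 for Sdhc (0.000843).

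The 4 genes that were lower in Tmem173-/- cells under cGAMP were Ndufs3, Ndufs7, Ndufa12 and Atp5b. Ndufs3 had 80.5, 70.7 and 76.6 CPM in Tmem173-/- cGAMP libraries, against 95.0, 93.7 and 95.1 CPM in wild type cGAMP libraries, with no overlap (log2 fold change -0.32 ± 0.09, SE, edgeR adjusted p = 0.00602). Ndufa12 had 78.4, 58.8 and 61.4 CPM in Tmem173-/- cGAMP libraries, against 92.0, 103 and 88.2 CPM in wild type cGAMP libraries (log2 fold change -0.51 ± 0.15, SE, edgeR adjusted p = 0.0116), a call lost without Tmem173-/- cGAMP library 2 (adjusted p = 0.0523). Atp5b (-0.38, edgeR adjusted p = 0.0415) lost its call in 6 of the 12 fits that left out 1 library, with adjusted p of 0.0502 to 0.148, and Ndufs7 (-0.28, edgeR adjusted p = 0.0230) in 3, without Tmem173-/- cGAMP library 2 or wild type cGAMP library 1 or 2. Without Tmem173-/- control library 1 the comparison called 17 members, given without the share of all genes called in that fit.

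The genes that serve the chain were read from 8 lists written with earlier results of these data known. In wild type cells, cytochrome c and the electron carriers had 5 of 11 tested genes higher (45.5%, beside 22.4% of all genes) and 2 lower (18.2%, beside 25.4%) after cGAMP. Cycs, cytochrome c itself, averaged 127 ± 0.757 CPM in wild type cGAMP and 78.2 ± 14.6 CPM in wild type control cells (SD, n = 3 each; log2 fold change 0.69 ± 0.13, SE, edgeR adjusted p = 0.000461). Cyc1 and Ndufab1, subunits of complexes III and I that the name rule does not take in, are among these 5 and are named after their values were seen, with log2 fold changes of 0.33 (edgeR adjusted p = 0.0243) and 0.40 (adjusted p = 0.00528). Chchd4, which imports small proteins into the space between the mitochondrial membranes, was higher by 0.70, and Etfb and Etfdh, of the route that brings electrons from fatty acid oxidation, were lower with log2 fold changes of -0.67 and -0.36.

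**Figure D5:**
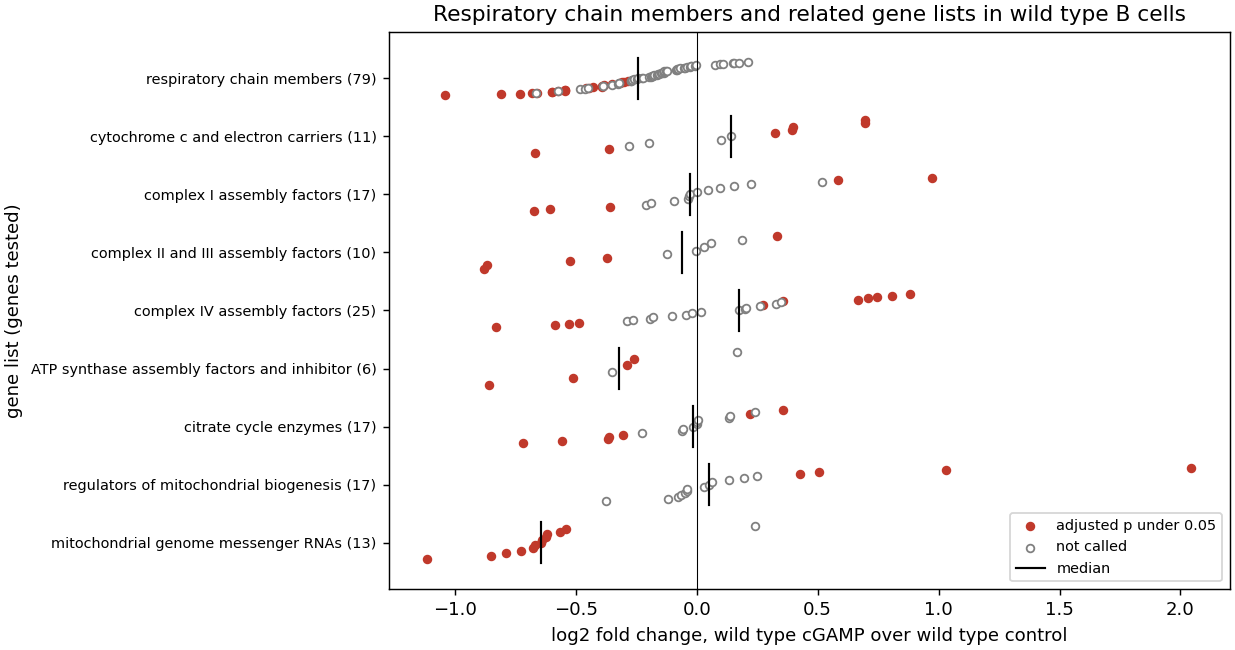
Log2 fold change, wild type cGAMP over wild type control, of each tested gene in the respiratory chain and in 8 related lists (rows; number of genes tested in brackets), filled where the edgeR adjusted p was under 0.05, with a line at each list's median. The members' median is -0.24, and the lists of assembly factors and carriers hold called genes on both sides of 0 except the ATP synthase list, which has called genes on the negative side.

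Assembly factors were called in both directions, as were genes in general, with 22.4% of all tested genes higher and 25.4% lower. The higher and lower shares were 11.8% and 17.6% for complex I, 10% and 40% for complexes II and III, 28% and 16% for complex IV, and 0% and 66.7% of only 6 genes for the ATP synthase, and nothing particular to these lists is read from them. Of 17 tested for complex I 2 were higher, Ndufaf4 (0.97 on the log2 scale) and Foxred1 (0.58), and 3 lower, with Ndufaf3 (-0.67) and Dmac1 (-0.61) lowest. For complexes II and III 1 of 10 was higher, Ttc19 (0.33), and 4 lower, with Uqcc3 (-0.88) and the complex II factor Sdhaf4 (-0.87) lowest; the higher count was 0 without wild type control library 2 and 2 without wild type control library 3. Of 25 complex IV factors 7 were higher, led by Cox18 (0.88), which inserts a mitochondrially made subunit into the membrane, and Slirp (0.81), and 4 lower, led by Higd2a (-0.83) and Pet100 (-0.58). The lower count was 2 without any one of Tmem173-/- cGAMP library 2, wild type cGAMP libraries 1 and 3 and wild type control libraries 2 and 3. Of the 6 genes for assembly and inhibition of the ATP synthase 4 were lower, led by Fmc1 (-0.86) and the inhibitor Atpif1 (-0.51), and none higher; that count was 2 without wild type cGAMP library 1 and 1 without wild type control library 3, with adjusted p of 0.0633 for Fmc1 and 0.0624 for Atpif1 without the control. Calls of Slirp, Pet100 and Ttc19 were also lost in 3, 7 and 1 of the 12 fits that left out 1 library.

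In the citrate cycle, which feeds complexes I and II, 5 of 17 enzymes were lower and 2 higher, shares of 29.4% and 11.8% that are near and below those of all genes. Fh1, the fumarase that acts on the product of complex II, averaged 108 ± 5.78 CPM in wild type cGAMP and 178.5 ± 23.3 CPM in wild type control cells (SD, n = 3 each; log2 fold change -0.72 ± 0.10, SE, edgeR adjusted p = 1.39e-05). Suclg1, of the step that makes succinate, was lower with a log2 fold change of -0.56, while Dlat (0.36) and Dlst (0.22) were higher, calls that were lost without wild type cGAMP library 1 or 3 or wild type control library 2, and for Dlst also without wild type control library 3.

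Among 17 regulators of mitochondrial biogenesis 4 were higher and none lower, and the 23.5% higher is close to the 22.4% of all tested genes. Pprc1, a coactivator of the PGC-1 family, had 245, 223 and 236 CPM in wild type cGAMP libraries, against 130, 114 and 101 CPM in wild type control libraries (log2 fold change 1.03 ± 0.09, SE, edgeR adjusted p = 2.85e-07). Perm1, a regulator named for muscle, was higher by 2.05 at a low level, 4.45 ± 0.596 CPM in wild type cGAMP and 1.07 ± 0.306 CPM in wild type control cells. Nrf1, Gabpa, Yy1 and Tfam, which encode factors for nuclear respiratory genes and mitochondrial DNA, had log2 differences of -0.04, -0.04, 0.06 and -0.05 and were not called. Of the 13 messenger RNAs of the mitochondrial genome, which encode the remaining subunits, 12 were lower (92.3%, beside 25.4% of all genes), with mt-Atp6 at -0.85 (edgeR adjusted p = 0.000384) and mt-Atp8 at -1.11, a call lost without any one of 8 libraries, and without wild type control library 3 the count was 11. In Tmem173-/- cells cGAMP gave 0 calls in each of the 8 lists.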

How the data were processed

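Per the labels, RNA from sorted B cells was made into poly-A libraries; per the submitters' processing notes, fastp, STAR, featureCounts and build GRCm38 (mm10) were used, with versions and settings not given. The annotation release and the strand setting are not given in the sources used here. The authors deposited a raw count per gene and library and an FPKM table, in which each value equals the count over library total and 1 fixed length per gene; that length, whose source is not given, was within 1% of the deposited gene length for 11 of 79 tested members. Counts were tested in edgeR 4.0.16 (R 4.3.3): low-count filter, TMM scaling, 4 group means, robust quasi-likelihood fit, 5 contrasts, and Benjamini-Hochberg adjustment over 14473 genes. CPM are TMM-scaled, FPKM served for levels, and 95% intervals came from limma-voom (limma 3.58.1). DESeq2 1.42.0, other scalings and fits without single libraries were alternatives. Total counts per library set the counting precision. The members and lists were chosen with earlier results of these data known. Named were the 3 largest fitted rises and falls of each complex in wild type cells, isoform families, the smallest adjusted p in the other contrasts, and the 2 largest called changes each way in each list. Results for a few genes, figures included, are not reported here. On simulated counts for the wild type comparison (14175 genes), 41.2% of changes of 0.5 and 66.7% of changes of 1 on the log2 scale were called, with 4 unchanged genes called. Only 200 genes were changed in the simulation, while 47.8% of all tested genes were called in the measured comparison. The simulated rates therefore do not give the sensitivity of the measured comparison.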

Additional observations from a re-analysis of the deposited data

Results flagged for a closer look

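The responses of the genotypes to cGAMP differed, by the test of the difference itself (wild type minus Tmem173-/-, log2, edgeR adjusted p under 0.05), for the following genes among others. In the respiratory chain the differences were -1.12 for Cox7a2l, -1.10 for Uqcrh, -0.71 for Ndufb11, -0.67 for Sdhc, -0.67 for Ndufb10, -0.64 for Ndufa2, -0.58 for Ndufv3, -0.58 for Ndufb3, -0.49 for Ndufs8, -0.49 for Sdha, -0.46 for Ndufb5 and -0.41 for Ndufa11. Of the 12 fits that left out 1 library, the call was lost in 10 for Ndufa11, 7 for Ndufb3, 6 each for Ndufa2 and Ndufb5, and 4 for Ndufs8.

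Among the related lists, the response was more positive in wild type cells for Perm1 (2.14), Pprc1 (1.06), Cox18 (1.03), Ndufaf4 (0.83), Cycs (0.61), Foxred1 (0.56) and Dlat (0.44). It was more negative in wild type cells for Fmc1 (-1.06), mt-Atp6 (-1.04), Etfb (-1.02), Sdhaf4 (-0.98), Uqcc3 (-0.94), Higd2a (-0.86), Fh1 (-0.80), Atpif1 (-0.77), Ndufaf3 (-0.72), Dmac1 (-0.70) and Suclg1 (-0.61). The call of Dlat was lost in 10 and that of Fmc1 in 8 of the 12 fits that left out 1 library, and that of Cycs without Tmem173-/- cGAMP library 3 (adjusted p = 0.0561). Groups of 3 libraries were not tested for single outlying values.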

How the results depend on the processing

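The wild type count of 22 was 34 with no filter on low counts, 7 when a call also needed 1.5-fold, 8 without both wild type replicate 3 libraries (chosen after seeing the data) and 11 to 28 with 1 library left out. The difference of responses, 13 members, gave 28, 6, 6 and 7 to 34 under the same settings. Member counts that moved with the fit, here and above, are given without the share of all genes called in that fit. They do not tell a change in the members from one in genes in general. Between genotypes under cGAMP the count of 12 was 22 with no filter, 2 at 1.5-fold and 8 to 17 with 1 library left out, and between controls it was 5 with no filter and otherwise 0. The other scalings and tools gave 20 to 23, 10 to 17 and 12 to 15 calls in these 3 comparisons. In Tmem173-/- cells no setting called a member, although no filter called 23 genes in all. Same-numbered libraries of a genotype correlated at 0.0834 to 0.300, with each library closest to its own number, a hint from the data and not the design; a replicate block within genotype gave 30 and 21 calls, and a block on a number shared by all groups 21 and 11. Of 704 refitted values of named members, 631 kept sign and side, and the 22 that reversed belonged to members with no call. Sdhd was 0.011 by median-of-ratios scaling and DESeq2, 0.012 without both wild type replicate 1 libraries, 0.067 on library totals and FPKM, and 0.080 without both replicate 3 libraries, where Sdhb was 0.021, Cox7b 0.091 and Cox6b2 0.032. The cause was not tested. With 1 library left out, log2 differences ranged over -0.089 to 0.087 for Sdhd, -0.17 to 0.044 for Sdhb, -0.0092 to 0.27 for Cox7a2, -0.997 to 0.097 for Cox6b2, -0.0092 to 0.16 for Ndufs7, -0.039 to 0.23 for Atp5b, -0.14 to 0.44 for Cox6a2 and -0.18 to 0.046 for Cox7b.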
